A study of Mus musculus with 2 samples.

Results

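Neurons set their excitability with voltage-gated sodium, calcium and potassium channels, background and inwardly rectifying potassium channels, and the auxiliary subunits that bind to them. The genes for these proteins were taken as those marked as known in the count table of either library, typed as protein-coding in the annotation, and named Scn or Hcn followed by a digit, Cacna, Cacnb or Kcn. The rule used names and the presence of a read, not expression levels, and it found 117 genes. In all, 14758 protein-coding genes and 18534 annotated genes had a read. GENCODE M21, the annotation behind the files, held 130 protein-coding genes with such names, and 13 of them had 0 reads in both libraries. By name the rule also takes proteins that are not channel subunits, such as Kcnrg, a soluble regulator of potassium channels.

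Pore-forming alpha subunits of sodium and calcium channels are very large proteins that fold into repeated domains around the pore, while most potassium channels assemble from several smaller subunits. Sodium channels open first and drive the upstroke of the action potential, potassium channels repolarise the membrane and set its resting level, and calcium channels couple voltage to transmitter release and gene expression. Auxiliary subunits change gating and bring the channels to the axon, the dendrite or the synapse.

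The tissue was left cerebral cortex of mice aged 18 to 20 months, of B6CASTF1/J, an F1 cross between C57BL/6J and the wild-derived CAST/EiJ. There were 2 libraries in 1 group, numbered as biological replicates 1 and 2, each made from 2 µg of RNA, with the same donor entry. The labels gave female as the sex in one field and male in another, and named no treatment, genotype or time contrast. A read is a long complementary DNA molecule and can show which exons were joined in a transcript. Nothing in the labels says whether the libraries came from separate animals. The tests between them compare these 2 libraries as sequenced and cover counting error only.

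The tables held 871524 reads in replicate 1 and 839150 in replicate 2, of which 774629 and 679147 lay on annotated genes. Levels are read counts scaled to the reads on annotated genes of the library, as CPM. They were not divided by length, since each read stands for 1 molecule, but long transcripts were often read in part, as described further on, so a level does not compare short with long transcripts. Marker genes of cortical cells were present: the summed level was 1457 ± 88.4 CPM (SD, n = 2) for 5 excitatory neuron markers, 1028 ± 102 for 6 inhibitory neuron markers and 3397 ± 192 for 4 astrocyte markers. Markers of neighbouring tissue were lower, with 609 ± 61.2 CPM for striatum, 265 ± 2.23 for hippocampus, 36.5 ± 0.470 for thalamus and 16.0 ± 10.2 for choroid plexus, the last 2 with 2 of 4 genes at 0. Few genes made up these sums. For striatum, Ppp1r1b was at 364 CPM and Penk at 213, beside Drd1 at 24.3 and Adora2a at 7.28. Wfs1 was at 262 for hippocampus and Calb2 at 30.3 for thalamus. The sums therefore do not measure how much neighbouring tissue was present. In bulk tissue, fewer cells of a type and less RNA per cell cannot be told apart.

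The 117 genes held 4052 reads in replicate 1 and 3677 in replicate 2, or 0.523% and 0.541% of the reads on annotated genes. Their summed level was 5231 and 5414 CPM. Reads were concentrated in few genes: the top 5 genes held 36.0% of them and the top 20 genes 66.9%. At least 10 reads in each library were found for 63 genes, or 53.8%, beside 55.9% of the protein-coding genes with a read. The median gene had 25.0 reads over both libraries, beside 31.0 for protein-coding genes. A further 31 genes had fewer than 10 reads in total, and 12 had 0 in 1 of the libraries.

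**Figure D1:**
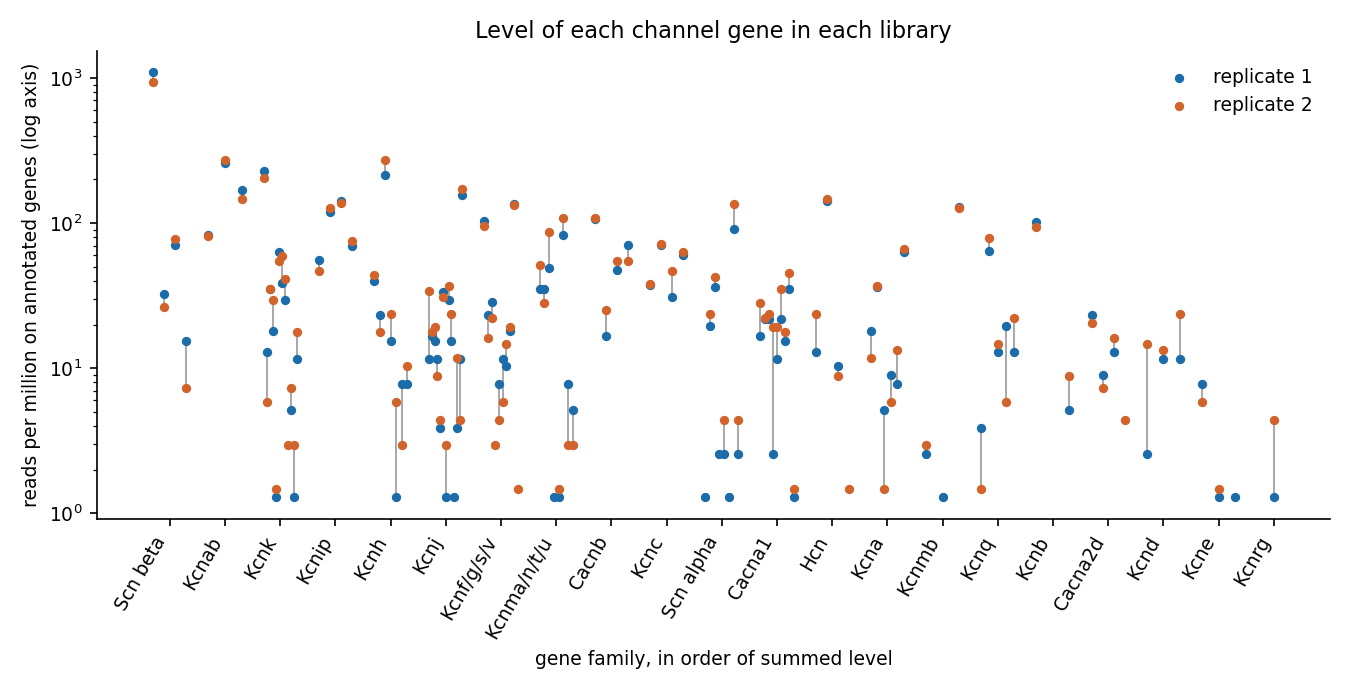
Level of each of the 117 genes in each library, in CPM on a log axis, grouped by family in order of summed level. Points are libraries, grey lines join the 2 values of a gene, a library with 0 reads has no point. Kcnab2, at 261 and 271 CPM, and Kcnh3, at 213 and 274, are among the higher genes.

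Among sodium channel beta subunits, small single-pass membrane proteins that modulate the pore and act in cell adhesion, Scn3b had 55 and 53 reads in replicates 1 and 2. Scn2b had 25 and 18, and Scn4b 12 and 5, so that this order held in each library. Unannotated models of 1 exon held the most Scn3b reads, 19 and 21. Its 3 most-read annotated transcripts share a complete coding region of 645 nt: Scn3b-201 with 11 and 15 reads, Scn3b-203 with 6 and 5, and Scn3b-202 with 4 and 5. Scn2b was read almost only in this way: 42 of its 43 reads lay on unannotated models of 1 exon, and 2.33% held its stop codon.

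Sodium channel alpha subunits, which form the pore, were at 157 and 211 CPM in sum. Scn8a, the main sodium channel of the axon initial segment and the nodes of Ranvier, led with 71 and 92 reads. Scn2a, which is found in excitatory neurons and in unmyelinated axons, had 28 and 29. Scn1a, known from fast-spiking inhibitory neurons, had 15 and 16. Scn8a was thus above Scn2a, and Scn2a above Scn1a, in each library. No other alpha gene reached 10 reads in total. Scn11a, a channel of sensory neurons, and Scn4a, the channel of skeletal muscle, had 0 reads, which allows up to 3.87 CPM in replicate 1 and 4.42 in replicate 2 (3 counts each).

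Scn8a and Scn2a each carry an exon of 92 nt, known as the adult form, in the part that codes for the voltage sensor of the first domain. These exons are printed because they carried most reads of both genes that cross this stretch. They are given 5′ to 3′ from the GENCODE M21 transcripts Scn2a-204 and Scn8a-203 on mm10, both on the plus strand, with capitals at the bases that differ between the genes. They lie at chr2:65682690-65682781 and chr15:100959603-100959694.
Scn2a 92-nt exon: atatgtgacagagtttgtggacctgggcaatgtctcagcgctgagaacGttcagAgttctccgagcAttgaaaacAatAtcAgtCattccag
Scn8a 92-nt exon: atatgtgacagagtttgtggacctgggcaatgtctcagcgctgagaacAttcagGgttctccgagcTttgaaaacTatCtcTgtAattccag
The exons differ at 7 positions (92.4% identity). The Scn8a exon was in 29 and 34 reads, which is 95.5% of the 66 reads that cross this stretch (95% Wilson interval 87.5 to 98.4). The Scn2a exon was in 8 and 8 reads, or 94.1% of 17 (73.0 to 99.0).

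A model with a complete annotated coding region was found for 58 of the 163 Scn8a reads and for 17 of the 57 Scn2a reads. The longest annotated coding region of each gene measures close to 6 kb. The annotated Scn8a-203, of 27 exons and with a coding region of 5934 nt, had 16 and 22 reads. In Scn2a, an unannotated combination of annotated splice sites that spans the coding region of Scn2a-205 had 5 and 8 reads.

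Calcium channel alpha-1 genes, each long enough to code for the whole pore, were at 148 and 212 CPM in sum. Cacna1i, a low-voltage-activated channel, had 27 and 31 reads. Its relative Cacna1g had 17 and 24, Cacna1c, a channel that couples depolarisation to transcription, 17 and 16, and Cacna1a, a channel of presynaptic terminals, 13 and 19. Cacna1d had 2 reads in replicate 1 and 13 in replicate 2, and is named after its values were seen. Cacna1f, a channel of the retina, had 0 reads. Of 259 reads on this family, 2 lay on models with a complete coding region (0.772%), while 60.2% held the stop codon and 8.11% the start codon. In Cacna1i, 45 of 58 reads were on unannotated models of 1 exon.

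Beta subunits, cytosolic proteins that bring alpha-1 subunits to the membrane, were at 243 CPM in each library. Cacnb1 had 83 and 74 reads, Cacnb4 55 and 37, Cacnb3 37 and 37, and Cacnb2 13 and 17. Cacnb1 ended in either of 2 exons: the last exon of Cacnb1-205 and its like opened 55 of 105 reads (52.4%, interval 42.9 to 61.7), and that of Cacnb1-201 opened 50. These transcripts code for regions of 1437 and 1791 nt. The alpha-2-delta genes, whose products are mostly extracellular, were low, with Cacna2d1 at 18 and 14 reads, Cacna2d3 at 10 and 11, and Cacna2d2 at 7 and 5.

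Among the voltage-gated potassium channels of the Kcna to Kcnd families, Kcnc2 and Kcnc4, from the family that lets neurons fire fast, had 55 and 49 reads, and 47 and 43. Kcnc1, of the same family, had 29 and 26. In the Kcna family, Kcna6 had 49 and 45 reads, Kcna2, an axonal channel, 28 and 25, and Kcna1 14 and 8. The Kcnd family, which carries the A-type current of dendrites, was low with 20 and 35 reads in sum: Kcnd3 had 9 and 16, Kcnd2 9 and 9, and Kcnd1 2 and 10. Kcna7 and Kcna10 had 0 reads.

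Some of these genes were read mostly as models of 1 exon. Unannotated models of 1 exon held 82.8% and 96.2% of Kcnc1 reads and 82.1% and 80.0% of Kcna2 reads. Kcna6 differed, with 57.1% and 66.7% of its reads on Kcna6-201, which GENCODE types as a nonsense-mediated decay transcript and which spans the complete coding region of 1587 nt. In Kcnc4, Kcnc4-201 had 17 and 20 reads and a 4-exon chain with an unannotated splice site had 15 and 9.

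A coding exon of 104 nt in Kcnc2 (chr10:112456929-112457032, plus strand) was included in a minority of reads, and its length is not a multiple of 3. It is shown in capitals between 12 bases of the flanking exons of Kcnc2-203.
Kcnc2 104-nt exon: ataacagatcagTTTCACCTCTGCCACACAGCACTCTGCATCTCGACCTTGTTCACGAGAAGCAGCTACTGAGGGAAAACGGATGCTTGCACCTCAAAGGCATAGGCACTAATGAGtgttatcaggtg
It was in 4 of 35 informative reads in replicate 1 and in 9 of 30 in replicate 2, or 20.0% of both (interval 12.1 to 31.3). The last exon of Kcnc2 also varied: 71.4% of 49 reads ended in the exon of Kcnc2-201 to Kcnc2-203 and 22.4% in that of Kcnc2-204.

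The electrically silent subunits of the Kcnf, Kcng, Kcns and Kcnv families, which form no channel alone and alter Kcnb channels, were at 338 and 315 CPM in sum. Kcnv1 had 105 and 90 reads and Kcnf1 80 and 65. Kcng2 had 22 and 15, and Kcng1 18 and 11. All 145 reads of Kcnf1, a gene of 1 exon, were on the annotated Kcnf1-201, and 86.7% of Kcnv1 reads held the coding region of 1509 nt.

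In the Kcnh family, Kcnh3, a channel of forebrain neurons, had 165 and 186 reads. Kcnh1 had 31 and 30, Kcnh2, the gene of the heart's rapid delayed rectifier, 18 and 12, and Kcnh4 12 and 16. Kcnh8 had 0 reads. Kcnh3 reads often lacked the 5′ side: 95.7% held the stop codon, 42.2% the start codon and 28.8% the whole coding region of 3285 nt. The annotated Kcnh3-201, of 15 exons, had 50 and 51 reads. Chains of 4 and 5 exons that match an annotated transcript only in part had 31 and 30, and 27 and 24. What made these chains partial was not tested. Of the Kcnq genes, which carry the M-current, Kcnq5 had 10 and 15 reads and Kcnq3 10 and 10.

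Auxiliary subunits of potassium channels held many of the reads. The Kcnab genes, cytosolic subunits of Kcna channels related to oxidoreductases, summed to 514 and 499 CPM. Kcnab2 had 202 and 184 reads, Kcnab3 132 and 100, and Kcnab1 64 and 55. The Kcnip genes, calcium sensors that bind Kcnd channels, summed to 387 CPM in each library: Kcnip3 had 111 and 94 reads, Kcnip2 92 and 86, Kcnip4 54 and 51, and Kcnip1 43 and 32. The Kcnd genes they bind were at 25.8 and 51.5 CPM. The Kcne genes were at 10.3 and 7.36 CPM, most of it the X-linked Kcne1l with 6 and 4 reads, and Kcne1 and Kcne2 had 0 reads.

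Kcnip genes were read in several forms. Kcnip3-203, with a coding region of 768 nt, had 71 and 55 reads, and Kcnip3-201, with 852 nt, had 15 and 13. Most Kcnip4 reads, 40 and 31, were on a chain of 8 exons that matches part of an annotated transcript and does not reach an annotated start codon, which 2.86% of Kcnip4 reads held. Exons of Kcnip1 and Kcnip2 whose lengths are multiples of 3 were included in part. They are shown in capitals between 12 bases of flanking exon, from Kcnip1-203 at chr11:33651540-33651572 and from Kcnip2-209 at chr19:45796279-45796332, both on the minus strand.
Kcnip1 33-nt exon: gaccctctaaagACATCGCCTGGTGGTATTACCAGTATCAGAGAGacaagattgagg
Kcnip2 54-nt exon: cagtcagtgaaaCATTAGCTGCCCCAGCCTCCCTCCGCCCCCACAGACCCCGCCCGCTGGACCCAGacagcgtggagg
The Kcnip1 exon was in 18 of 40 reads in replicate 1 and 8 of 28 in replicate 2, or 38.2% of both (interval 27.6 to 50.1). Reads of Kcnip1 were thus split, with Kcnip1-201 at 20 and 20 and the longer Kcnip1-203 at 18 and 8. Of Kcnip2 reads that hold the 96-nt exon just before it, the 54-nt exon was in 57 of 63 and 58 of 63, or 91.3% (85.0 to 95.1), and Kcnip2-209 led with 55 and 56 reads. The 96-nt exon was in turn counted over reads that splice directly to the exon after the 54-nt one, and so lack it, and was in 6 of 12 and 5 of 9 of them. The other 6 and 4 reads lack both exons and do not enter the 91.3%.

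Potassium channels opened by calcium or sodium were at 217 and 283 CPM in sum. Kcnt1, a sodium-activated channel, had 64 and 74 reads. Kcnn2, a small-conductance calcium-activated channel of the after-hyperpolarisation, had 38 and 59, and Kcnn1 27 and 19. Kcnma1, the large-conductance channel, had 27 and 35 reads, of which 77.8% and 88.6% were on unannotated models of 1 exon. Kcnmb4, its neuronal beta subunit, had 100 and 86 reads, of which 91.9% held the whole coding region of 630 nt, and Kcnmb1, the form of smooth muscle, had 0. No Kcnt1 or Kcnma1 read held a complete annotated coding region, a measure that requires the annotated introns. Long chains with unannotated combinations of exons therefore do not count. An unannotated Kcnt1 chain of 30 exons and 4658 nt had 8 and 7 reads, and a Kcnma1 chain of 27 exons and 5545 nt had 2 and 1. Exons of Kcnt1 were included in part, with a 63-nt exon in 38 of 46 and 50 of 54 reads and a 42-nt exon in 5 of 18 and 2 of 17. A 111-nt exon of Kcnn1 was in 18 of 25 and 16 of 18 reads.

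Inward rectifiers were at 312 and 365 CPM in sum. Kcnj9, a G-protein-gated subunit, had 121 and 116 reads, and its partner Kcnj3 had 23 and 25. Kcnj16 had 26 and 21, and Kcnj10, the main potassium channel of astrocytes, 9 and 23. Of the 32 Kcnj10 reads, 30 were on unannotated models of 1 exon, and 6.25% held the start codon. The 4 astrocyte markers summed to 3261 and 3532 CPM in the same libraries, and their part in the Kcnj10 values was not tested. Kcnj1 and Kcnj15 had 0 reads.

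Background channels of the Kcnk family summed to 447 and 461 CPM. Kcnk1 had 178 and 138 reads, of which 94.0% held a complete annotated coding region, mostly that of Kcnk1-201, of 1008 nt. Kcnk2, a mechanically gated channel, had 49 and 37, Kcnk3, an acid-sensitive channel, 30 and 40, and Kcnk4 23 and 28. Kcnk4 overlaps Catsperz on the same strand, and reads in the shared stretch could belong to either. Kcnk16 and Kcnk18 had 0 reads. Kcnk2 began at several places, with 57.6% of 59 reads from the start of Kcnk2-206, 20.3% from that of Kcnk2-201 and 15.3% from that of Kcnk2-205. A coding exon of 118 nt in Kcnk2 (chr1:189295594-189295711, minus strand) was left out of some reads, and its length is not a multiple of 3. It is shown in capitals between 12 bases of the flanking exons of Kcnk2-201.
Kcnk2 118-nt exon: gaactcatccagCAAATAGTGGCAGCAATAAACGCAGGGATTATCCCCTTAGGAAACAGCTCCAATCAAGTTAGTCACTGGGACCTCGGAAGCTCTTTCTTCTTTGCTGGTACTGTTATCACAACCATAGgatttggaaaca
It was in 27 of 31 reads in replicate 1 and 24 of 29 in replicate 2, or 85.0% of both (73.9 to 91.9). The Hcn genes, whose channels open on hyperpolarisation and pace rhythmic firing, included Hcn2 with 109 and 99 reads and Hcn3 with 8 and 6. Hcn2-202 held 57.8% and 64.6% of Hcn2 reads.

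The share of reads on annotated transcripts was 56.6% in replicate 1 and 54.4% in replicate 2, beside 71.1% and 68.2% for all protein-coding genes. Models of 1 exon held 23.3% and 25.6%, beside 10.8% and 11.8%. Models that match an annotated transcript only in part held 18.0% and 17.2%, beside 11.7% and 12.6%, and chains with unannotated splice sites 5.18% and 4.51%, beside 3.93% and 4.43%. Partial matches include models of 1 exon, so these shares overlap. Most of the unannotated reads of 1 exon touched an annotated exon of their gene: 29 of 834 and 72 of 847 touched none.

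A model with a complete annotated coding region was found for 59.6% and 57.6% of reads, beside 73.0% and 69.9% for all protein-coding genes. Such a model spans an annotated coding region from start to stop with the same introns inside it. A read given to an annotated transcript carries that transcript's ends, so its own first and last bases are not observed. At least 1 such read was found for 82 of 117 genes. Of 68 genes with 20 or more reads, 13 had none. Among families with at least 50 reads, the share was 91.1% for Kcnmb and 85.9% for the silent subunits at the upper end, and fell to 2.94% for Cacna2d and 0.772% for the alpha-1 genes of calcium channels.

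**Figure D2:**
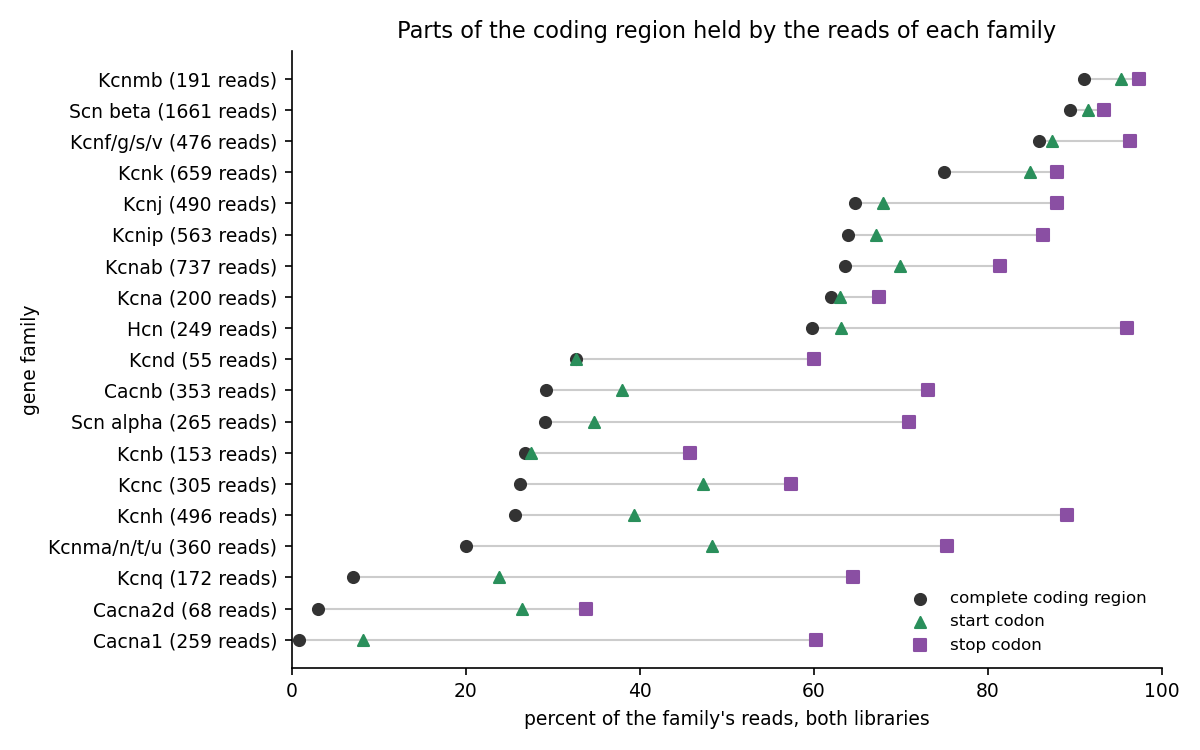
Percent of each family's reads, both libraries together, on models that hold a complete annotated coding region, the start codon or the stop codon, for families with at least 50 reads. In every family shown the stop codon was held more often than the start codon, with 96.0% against 63.1% for Hcn and 60.2% against 8.11% for Cacna1.

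The share with a complete coding region was lower for genes with longer coding regions. Genes were classed by their longest annotated coding region, while a read counted if it held any complete annotated coding region of its gene, also a shorter one. Among genes up to 1000 nt, 82.8% and 84.4% of reads did so, beside 82.0% and 80.6% for all protein-coding genes of that length. From 1000 to 2000 nt the shares were 61.7% and 62.3%, beside 74.3% and 71.1%. From 2000 to 3000 nt they were 37.6% and 40.1%, beside 55.8% and 52.5%, and from 3000 to 4500 nt 18.1% and 16.0%, beside 40.3% and 38.0%. Over 4500 nt they were 15.2% and 15.0%, beside 17.2% and 15.9%. The intervals of the channel genes lay below those of all genes in both libraries for the 3 middle classes only. These shares weigh genes by their reads, so the most-read genes of a class, also of the shortest, count most. Over 4500 nt, 36 and 43 reads held a complete annotated coding region, of which Scn8a gave 25 and 33 and Scn2a 8 and 9. Reads of a gene are not independent of each other, so the intervals cover counting error only.

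Taken per gene, with at least 20 reads, the median share was 75.2% for 8 channel genes up to 1000 nt, beside 85.4% for all 3005. It was 62.0% for 33 genes from 1000 to 2000 nt, beside 71.7%, and 25.0% for 10 genes from 2000 to 3000 nt, beside 55.3%. For 7 genes from 3000 to 4500 nt it was 6.25%, beside 30.0%, and for 10 genes over 4500 nt 1.22%, beside 4.94%. Each median of the channel genes was below that of all genes of the class. In the shortest class this differs in direction from the share of reads.

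**Figure D3:**
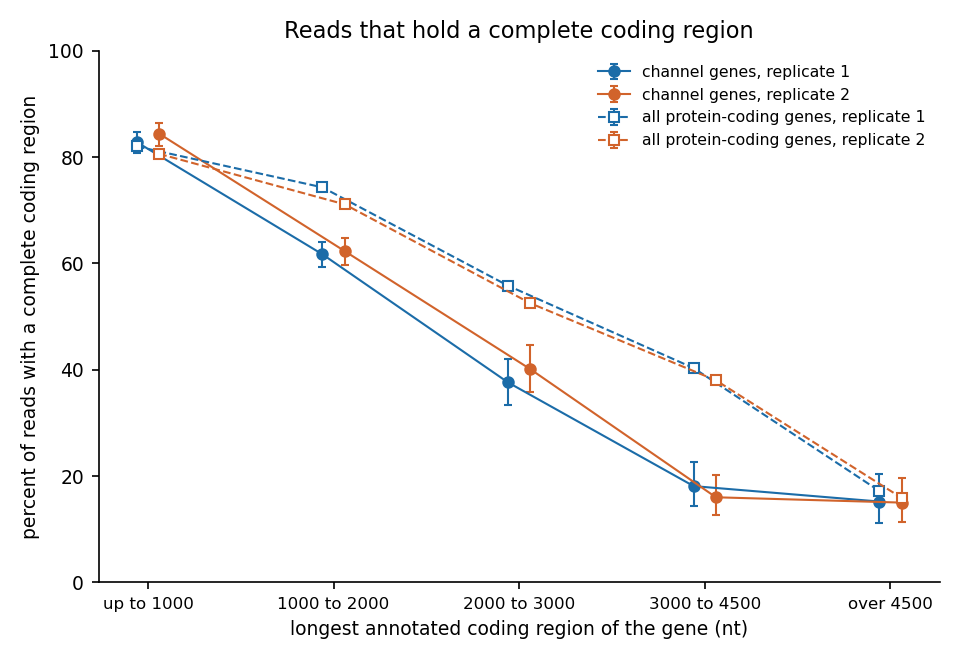
Percent of reads on models with a complete coding region against the longest annotated coding region of the gene, for channel genes (filled) and all protein-coding genes (open, channel genes included), with 95% Wilson intervals, in each library. Channel genes fell from 82.8% and 84.4% in the shortest class to 15.2% and 15.0% in the longest.

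Cassette exons, whose neighbours are also joined without them, were counted where 10 or more reads were informative. There were 36 such exons in 22 genes, and 17 had a length that is a multiple of 3. Some of them are unannotated and rest on few reads, such as a 35-nt exon of Kcnh2 in 1 of 15. Others overlap each other, such as those of 96 and 100 nt in Kcnip2, so the 36 are not all separate exons. Besides those above, an 80-nt exon of Scn3b was in 93.2% of 44 reads, a 217-nt exon of Kcnj3 in 90.6% of 32, and a 127-nt exon of Kcnk4 in 72.2% of 36. A 144-nt exon of Cacna1g was in 2 of 21 reads. Inclusion was tested between the libraries for the 6 exons with 20 informative reads in each, and 0 were called different (Fisher's exact test, two-sided, lowest p = 0.118, for Kcnc2). Over all genes, 1 of 1456 exons tested differed (0.0687%) and 52 had an unadjusted p under 0.05.

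**Figure D4:**
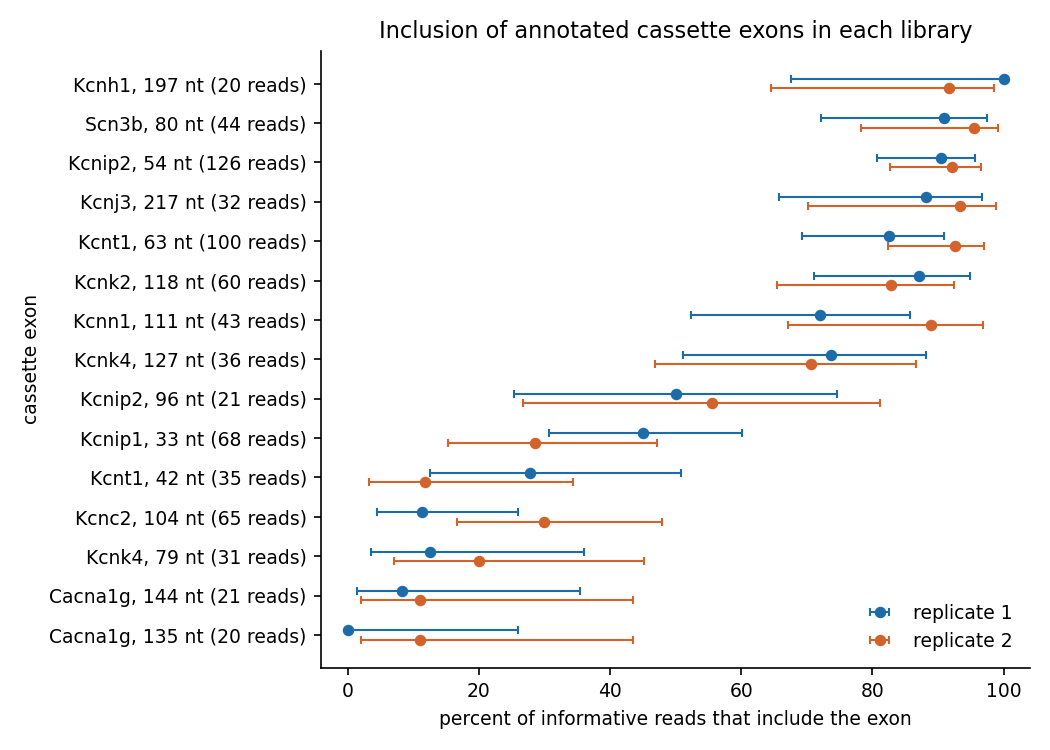
Percent of informative reads that include an annotated cassette exon, per library with 95% Wilson intervals, for exons with 20 or more informative reads in the genes reported here. Kcnip2 (54 nt) lay at 90.5% and 92.1%, Kcnip1 (33 nt) at 45.0% and 28.6%, and the intervals of the libraries overlap for each exon.

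The level of each channel gene was also compared between the libraries. Of 68 genes with 20 or more reads, 0 differed at an adjusted p of 0.05 (exact binomial test, two-sided, Benjamini-Hochberg over all genes), beside 182 of 9143 annotated genes tested (1.99%). An unadjusted p under 0.05 was found for 5 genes, or 7.35%, beside 11.8% of all genes tested. Of these, Kcnn2, Kcnj10, Scn8a and Kcnh3 were higher in replicate 2. On CPM + 1, Kcnj10 was the only tested channel gene over 2-fold apart, at 11.6 and 33.9 CPM, a log2 ratio of 1.47 with a counting error of 0.57 (exact binomial test, p = 0.00687, adjusted p = 0.161). Kcnn2 was at 49.1 and 86.9 CPM (p = 0.00586, adjusted p = 0.149 by the exact binomial test). The median log2 ratio of replicate 2 over replicate 1, on CPM + 1, was 0.10 beside 0.03 for all genes tested. Of the channel genes, 48 were higher in replicate 2 and 20 lower. This split was not counted over all genes, so it cannot be read as particular to the channel genes. With library sizes scaled by edgeR's TMM or by DESeq2's size factors, 1 of the 68 genes passed the threshold by the exact binomial test in each case.

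**Figure D5:**
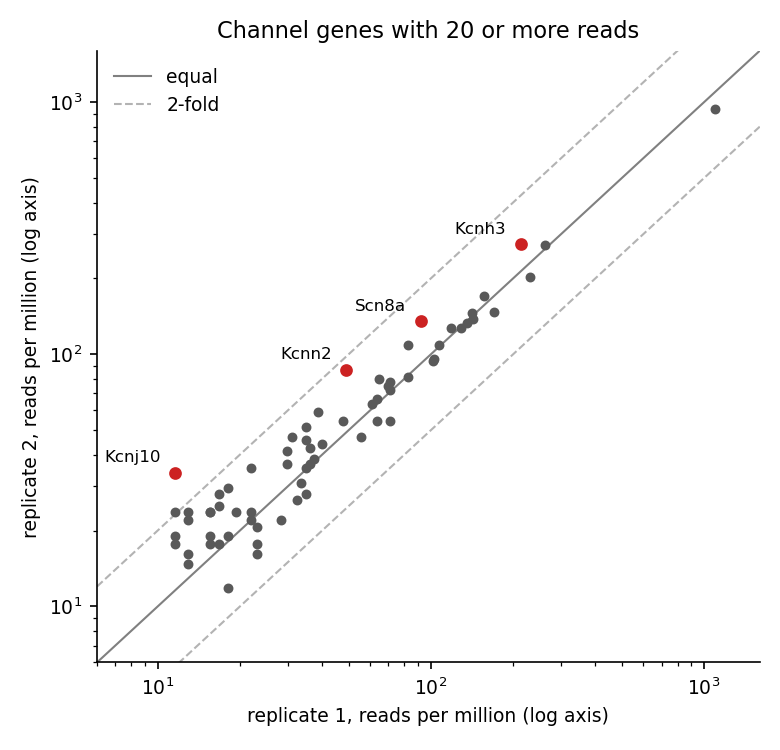
Level in replicate 2 against replicate 1, in CPM on log axes, for the 68 genes with 20 or more reads, with lines at equal level and at a 2-fold difference. The 4 genes with an unadjusted p under 0.05 that were higher in replicate 2 are named, and Kcnj10, at 11.6 and 33.9, lies farthest beyond the 2-fold line.

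Shares of transcripts were compared in the same way. Of 39 genes with 20 or more reads in each library, 0 had a different share of the most-read transcript (Fisher's exact test, two-sided, lowest p = 0.0557, for Kcnmb4), beside 10 of 5961 genes (0.168%). None of the 39 had an unadjusted p under 0.05, beside 401 of 5961. In 16 of the 39 genes unannotated models of 1 exon held the most reads, in 22 an annotated transcript, and in Kcnip4 the partial chain described above. The 22 include Kcnk4, where Kcnk4-201, with 3 and 0 reads, tied with an unannotated chain at 1 and 2.

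Proteins that anchor, modulate or signal through these channels were followed in a list of 55 names, of which 53 are annotated and 51 had reads. In sum they were at 21122 and 22159 CPM, and they include calmodulin, the calcium sensor that many of the channels bind: Calm2 had 3587 and 3431 reads, and Calm3 1716 and 1564. Snap25, a membrane fusion protein that binds presynaptic calcium channels, had 2471 and 2017, and Stx1a, which acts with it, 486 and 464. Vapa, a protein of contacts between the endoplasmic reticulum and the cell membrane, had 392 and 323 reads, and Syt1, the calcium sensor of transmitter release, 152 and 179. Of 39 partners tested between the libraries, 2 were higher in replicate 2 and 0 lower, where 1.99% of all genes tested were called in either direction. The higher ones were Calm2, with a log2 ratio of 0.13 (adjusted p = 0.0217), and Fgf13, an intracellular modulator of sodium channels named after its values were seen, with 71 and 105 reads and 0.75 (adjusted p = 0.0370, exact binomial test).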

How the data were processed

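The authors deposited, per library, whole-number counts of long reads for each transcript model, together with the exons of the models. Per the deposited notes, both derive from alignments to mm10 with GENCODE M21, and TALON is named in the annotation. Aligner, filters and versions: not given in the sources used here. The exons of all 141862 annotated transcripts in the files equal those of GENCODE M21, whose gene spans, coding regions and transcript sequences were used.

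A model missing from a table counted as 0 reads. Gene counts sum all models given to an annotated gene, antisense loci excluded. Spike-in RNAs, 1.58% and 1.33% of reads, were left out. Spliced models with the same introns were treated as 1 transcript in both libraries, and unannotated models of 1 exon were pooled per gene. Log2 ratios divide the CPM + 1 of replicate 2 by that of replicate 1. Genes were tested at 20 or more reads in total by the exact conditional binomial test, transcript and exon shares at 20 or more reads in each library by Fisher's exact test, with adjustment by Benjamini and Hochberg over all features and a threshold of 0.05. Cassette exons had 5% to 95% inclusion over both libraries. Intervals are 95% Wilson intervals. They and the limits of 3 counts cover counting error only. The tests were run on simulated counts with counting error only, which is the error they assume. Those runs therefore do not show how the tests behave where libraries differ by more than counting. Software was Python 3.11.15 with SciPy 1.17.1, and R 4.3.3 with edgeR 4.0.16 and DESeq2 1.42.0 for library scaling.

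Up to 4 genes per family were named by mean CPM at 10 or more reads in total, with genes that had 0 reads, an unannotated most-read form, several spliced transcripts or a cassette exon, and up to 8 partners. Some genes and sequences are not reported here. The genes and the lists were chosen with earlier results of these data known.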

Additional observations from a re-analysis of the deposited data

Results flagged for a closer look

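Reads on antisense models, which lie opposite an annotated gene and enter no gene count, were found opposite 80 of the channel genes, outside the main measurement. They summed to 815 reads in replicate 1 and 1746 in replicate 2, which is 2.14 times as many, where the genes themselves had 4052 and 3677. Antisense models of the whole series held 75937 and 139872 reads, a ratio of 1.84, or 8.85% and 16.9% of mouse reads. The most antisense reads lay opposite Kcnma1, with 161 and 355, beside 27 and 35 reads on the gene. Next came Kcnip4 with 74 and 227, and Cacna1d with 38 and 90. Both of these genes and Kcnma1 also have annotated genes on the opposite strand. Cacna1e, with 29 and 53, has none. There are no control samples, and the origin of these reads was not tested.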

How the results depend on the processing

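With edgeR's TMM sizes, 1 of 68 channel genes differed between the libraries, and with DESeq2's size factors also 1, beside 0 under the library totals and under the other minimums and model choices. Over all genes the calls were 182 and 186, beside 182. At 10 or more reads in total, Cacna1d had the lowest adjusted p, 0.109 (exact binomial test). No transcript share or exon of a channel gene was called under any alternative. The summed level of 5323 CPM became 4582 over all mouse reads, a larger denominator, and 4256 with annotated transcripts only, over the reads on such transcripts, and lay at 5231 and 5414 in the libraries taken alone. With annotated transcripts only, 28 genes had 10 reads in each library in place of 63. The annotated share of 55.5% was 70.0% over models of more than 1 exon, and 54.4 to 56.6% in single libraries. Of the levels of 67 named genes, 58 moved by more than the spread with annotated transcripts only, 46 of them lower, and 46 moved with models of more than 1 exon, 40 of them lower. Of 21 family sums, 14 moved over all mouse reads by more than the spread and 7 did not. All were lower, which the larger denominator fixes in advance, so the count reflects only the spread of each sum over the 2 libraries. No paired analysis was possible because there is 1 group. Depth limited most exons: 36 had 10 informative reads over both libraries, and 6 could be tested.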
